A study of Mus musculus with 4 samples.

Results

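The tripartite motif (TRIM) genes of mouse macrophages were followed through stimulation with R848 in wild-type and Batf2-deficient cells. Members were all probes whose gene symbol, in the authors' table or through the transcript named in the scanner files, starts with Trim and a digit, and which the scanner software marked as well above background on at least 1 of 4 arrays. The array carried 115 such probes for 67 Trim genes. Of these, 99 probes for 60 genes passed, out of 20649 named genes measured in all. The value of 46 of the 60 genes was well above background on all 4 arrays, and that of the other 14 on 1 to 3 arrays. The 7 genes with no measured probe were Trim7, Trim15, Trim30b, Trim31, Trim38, Trim66 and Trim80. Just outside the rule lay Trim7, whose highest signal on any array was 11.6, and just inside it Trim10, measured on 1 array at 13.5.

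Macrophages were grown from the bone marrow of male C57BL/6J mice in medium with 10% serum and 3 ng/ml of macrophage colony-stimulating factor (M-CSF), and were harvested on day 5. The 4 groups were wild type untreated (0 h), wild type after 8 h with 100 ng/ml of R848, Batf2-/- untreated (0 h) and Batf2-/- after 8 h with the same dose. R848, also called resiquimod, is a synthetic ligand of TLR7, a receptor for RNA in endosomes, and Batf2 is a transcription factor of the AP-1 family. The sources used here do not state the animals' age, how many animals stand behind an array or the allele of the knockout. The design sets the genotypes side by side before and after this stimulus.

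Each group is 1 array, so there is no replicate, no test and no p-value, and higher or lower below means only a difference between single arrays. The untreated arrays are labelled 0 h, so the effects of R848 and of 8 h of further culture cannot be told apart. Signals were brought to a common 75th percentile and are called scaled signals, in arbitrary units. A signal depends on the probe as well as on the transcript, so levels are compared between arrays and not between genes. Over 300 probes printed at least 10 times on each array, the median SD of the log2 difference between spots was 0.058 for the wild-type response and 0.049 for the knockout response. It was 0.29 and 0.24 for the 7 probes 2 to 4 log2 units below the 75th percentile, and 0.52 and 0.66 for the 9 probes more than 4 units below. Of the 300 probes, 275 lay at or above that percentile. That SD is technical error of spots on 1 slide and says nothing of the spread between cultures, and each Trim probe is printed once.

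Batf2 itself had scaled signals of 32.4 in wild type untreated, 94.4 in wild type with R848, 26.9 in the knockout untreated and 11.3 in the knockout with R848, where it was not well above background. With R848 it was at least 6.20-fold lower in the knockout. The untreated arrays differed by 0.27 log2 units and so do not separate the genotypes on this probe. No source used here states whether the probe lies in the deleted part. All 9 macrophage markers examined, among them Csf1r, Adgre1 and Cd68, were well above background on all 4 arrays. Markers of some other cells differed between genotypes. Of the dendritic cell (5), B cell (4) and fibroblast (4) markers, none with a value differed 2-fold between genotypes, untreated or with R848. Of 3 T and NK cell markers 1 was lower in the untreated knockout, and with R848 1 was lower and 1 higher. Larger differences were seen in 2 lists. The summed signal of 9 basophil and mast cell markers was 6039 and 3554 in wild type and 647 and 701 in the knockout (untreated, then R848), with 7 of 9 at least 2-fold lower in the untreated knockout. The summed signal of 9 granulocyte markers was 157263 and 123291 in wild type against 85189 and 79055 in the knockout, with 5 of 9 lower untreated. The part of these markers' cells in the Trim differences between genotypes was not tested. In such bulk RNA, fewer cells of a type and less RNA per cell cannot be told apart.

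TRIM proteins carry a RING domain, B-box zinc fingers and a coiled coil, followed by a C-terminal domain that sorts them into subfamilies. The RING domain makes most of them E3 ubiquitin ligases, which attach ubiquitin to a target with the help of an E2 enzyme. Many with a C-terminal PRY-SPRY domain take part in innate immunity: Trim25 ubiquitinates the RNA sensor RIG-I, Trim21 binds antibody-coated virus in the cytosol, and Trim5 and its mouse relatives belong to a family known for restricting retroviruses. Several are interferon-stimulated genes, switched on through interferon-stimulated response elements (ISREs), short promoter sequences bound by IRF factors. The name E3 ligase is too wide for some members, because Trim14, Trim16, Trim29 and Trim44 are known to lack a RING domain.

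Promoters are shown for 6 Trim genes of chromosome 7, since they hold the ISRE core and since 5 of these genes were at least 2-fold higher with R848 in the knockout and Trim12a 1.82-fold. The sequences are those of RefSeq on GRCm38.p6, from 250 bases before to 50 after the start of transcription. Capitals mark matches to the ISRE core, GAAA and GAAA with 2 bases of any kind between them, read on both strands (on the other strand it reads TTTC and TTTC); in Trim21 a pair of matches overlaps.

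Trim30a, chr7:104465144-104465443, minus strand: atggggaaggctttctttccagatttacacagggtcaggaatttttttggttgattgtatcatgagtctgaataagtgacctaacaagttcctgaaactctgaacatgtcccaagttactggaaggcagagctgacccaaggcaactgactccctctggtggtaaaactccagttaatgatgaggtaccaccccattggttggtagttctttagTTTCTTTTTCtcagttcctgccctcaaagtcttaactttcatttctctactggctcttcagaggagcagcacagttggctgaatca
Trim30d, chr7:104507800-104508099, minus strand: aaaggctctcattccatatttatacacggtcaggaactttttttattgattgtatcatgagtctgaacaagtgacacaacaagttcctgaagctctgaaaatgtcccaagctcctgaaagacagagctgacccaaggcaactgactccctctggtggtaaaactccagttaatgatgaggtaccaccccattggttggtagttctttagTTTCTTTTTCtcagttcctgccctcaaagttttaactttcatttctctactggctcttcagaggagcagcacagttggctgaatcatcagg
Trim12a, chr7:104315446-104315745, minus strand: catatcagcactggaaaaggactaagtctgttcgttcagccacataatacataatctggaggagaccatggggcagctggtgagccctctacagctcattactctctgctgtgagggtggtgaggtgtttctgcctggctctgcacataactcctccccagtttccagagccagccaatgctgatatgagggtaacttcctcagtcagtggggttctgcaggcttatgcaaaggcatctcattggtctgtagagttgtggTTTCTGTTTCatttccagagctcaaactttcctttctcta
Trim12c, chr7:104353300-104353599, minus strand: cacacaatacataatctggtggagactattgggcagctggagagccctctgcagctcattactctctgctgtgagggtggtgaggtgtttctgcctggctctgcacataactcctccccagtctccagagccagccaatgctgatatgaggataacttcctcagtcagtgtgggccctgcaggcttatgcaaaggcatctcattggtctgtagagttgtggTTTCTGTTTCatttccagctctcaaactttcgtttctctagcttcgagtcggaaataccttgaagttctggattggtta
Trim34a, chr7:104244207-104244506, plus strand: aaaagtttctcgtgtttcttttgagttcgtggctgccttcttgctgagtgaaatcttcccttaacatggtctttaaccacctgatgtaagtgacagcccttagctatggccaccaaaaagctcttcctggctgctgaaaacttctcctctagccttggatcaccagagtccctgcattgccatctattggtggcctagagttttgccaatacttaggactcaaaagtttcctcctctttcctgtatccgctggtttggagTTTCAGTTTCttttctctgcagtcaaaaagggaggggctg
Trim21, chr7:102565433-102565732, minus strand: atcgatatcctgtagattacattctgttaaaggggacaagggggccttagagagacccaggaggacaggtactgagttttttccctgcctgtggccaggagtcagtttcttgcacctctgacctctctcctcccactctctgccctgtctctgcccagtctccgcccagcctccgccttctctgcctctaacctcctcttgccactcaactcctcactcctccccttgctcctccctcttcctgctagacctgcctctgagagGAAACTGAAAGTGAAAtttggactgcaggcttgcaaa

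That core was found in 3.44% of all 32851 promoters of the same length, and in a promoter of 3.99% of 27025 genes. Of the 60 measured Trim genes 44 had a promoter entry, and 9 of these genes (20.5%) held the core. It was present in 6 of the 9 genes with an entry that were at least 2-fold higher with R848 in the knockout and in 3 of the 35 other genes. The 6 were Trim5, Trim12c, Trim21, Trim30a, Trim30d and Trim34a, and the 3 were Trim2, Trim12a and Trim26. Neighbouring copies are not independent: the Trim30a and Trim30d promoters printed above were identical at 93.9% of 294 aligned bases, those of Trim12a and Trim12c at 94.6% of 261, and those of Trim12a and Trim5 at all of 241. No match lay in the promoters of Trim9, Trim13 and Trim34b. The kappaB motif was found in a promoter of 5.14% of all genes and of none of the 44 Trim genes. A match describes these letters only and shows no binding.

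With R848, wild-type macrophages had higher signals for 7 Trim genes and lower signals for 4, at a threshold of 2-fold. The 7 were Trim9, Trim13, Trim21, Trim30a, Trim30d, Trim34a and Trim36, and the 4 were Trim37, Trim59, Trim62 and Trim68. That is 11 of 53 genes with a value, against 13.2% of all genes measured in the same comparison, in which 6.19% were higher and 7.03% lower. In the knockout 11 Trim genes were higher and 3 lower of 59, against 13.4% of all genes, with 6.83% higher and 6.59% lower. The 11 were the same 7 joined by Trim5, Trim12c, Trim30e-ps1 and Trim34b, and the 3 were Trim47, Trim59 and Trim69. Some of these values could enter only because 1 of the arrays was bright enough. Over the 46 genes measured on all 4 arrays, 5 were higher and 3 lower in wild type, and 7 higher and 2 lower in the knockout. Of all genes measured on both arrays of a response, 11.9% were called in wild type and 11.9% in the knockout. With normexp background correction the split was 2 higher and 0 lower in wild type, against 6.72% of all genes called, and 7 higher and 2 lower in the knockout, against 6.77%. With each array centred on its median instead, the wild-type split became 9 higher and 2 lower, against 13.4% of all genes called. The median of all genes then moved from -0.03 to 0.13 on the log2 scale.

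The family as a whole showed no shift. The median log2 difference of the measured Trim genes was -0.01 in each response, beside -0.03 (wild type) and -0.06 (knockout) over all genes. The responses share no array, and 43 of the 53 genes with both values had the same sign in them. All 7 genes higher in wild type were also higher in the knockout, where they made up 63.6% of the 11. Of the lower genes Trim59 was called in both, 1 of 4 in wild type and 1 of 3 in the knockout, and Trim69, called in the knockout, was at least 1.76-fold lower in wild type. Over all genes 73.8% had the same sign in both responses. Of all genes higher in wild type 66.9% were also higher in the knockout, and of those lower 50.8% were also lower. Of all genes higher in the knockout 57.3% were also higher in wild type, and of those lower 51.3% were also lower.

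**Figure D1:**
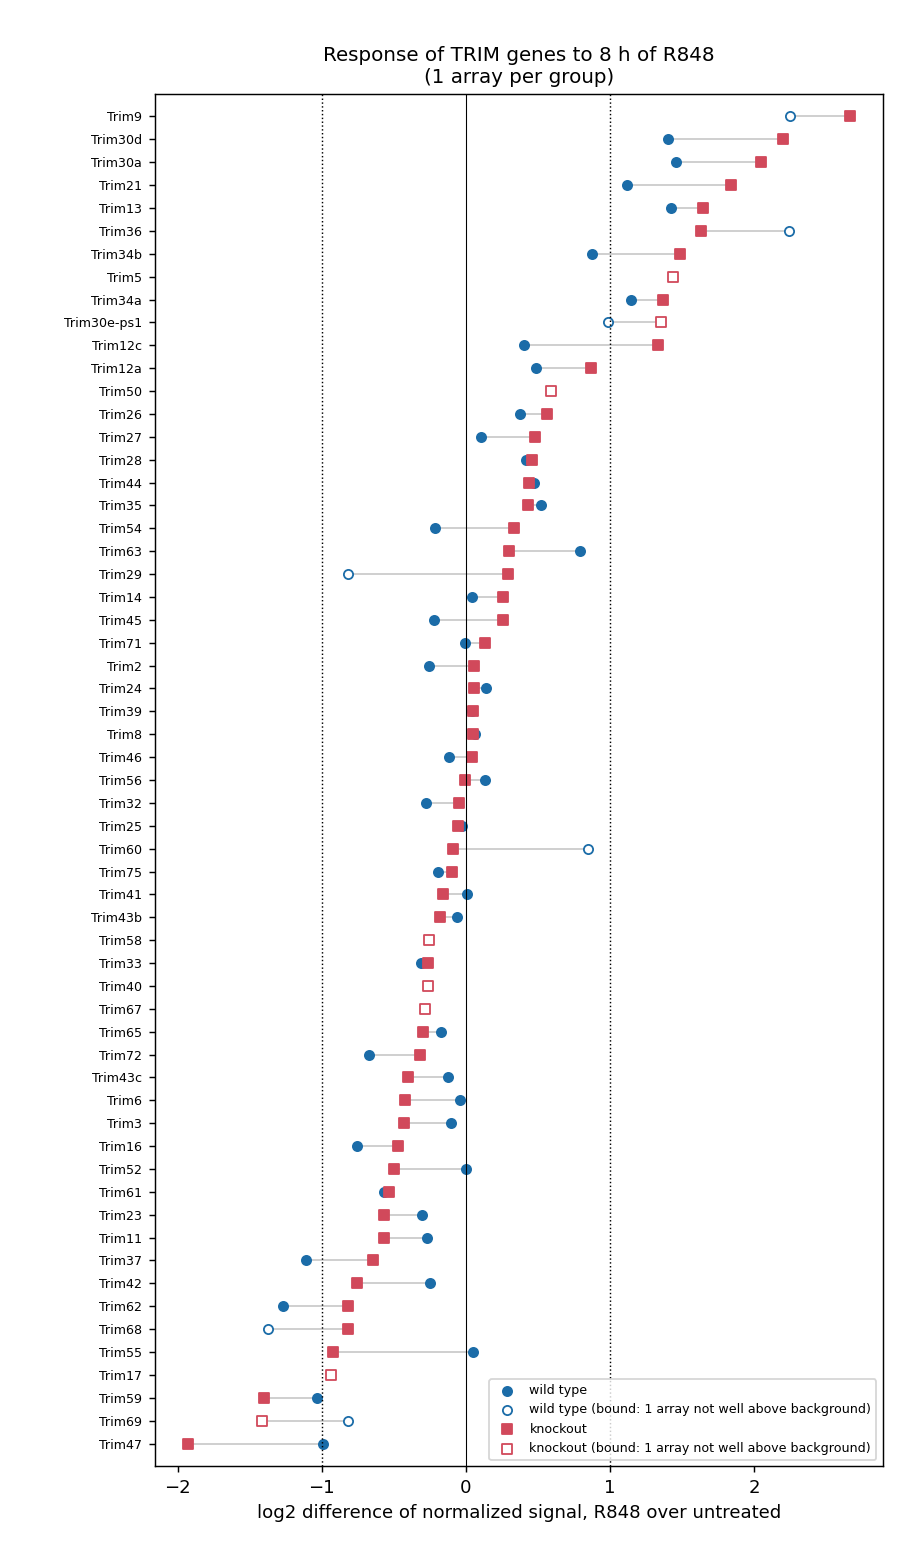
Log2 difference of normalized signal, R848 over untreated, for the 59 Trim genes with a value in the knockout, ordered by it (1 array per group, so no error bars). Circles are wild type and squares knockout, open symbols are bounds with 1 array not well above background, and dotted lines mark 2-fold; 11 genes lie beyond the upper line in the knockout and 3 beyond the lower one.

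Trim30a and Trim30d, neighbouring PRY-SPRY genes, were higher with R848 in both genotypes. Trim30a, which is known to be induced by Toll-like receptor signals and to limit them by degrading TAB2 and TAB3, had scaled signals of 987 in wild type untreated, 2708 in wild type with R848, 714 in the knockout untreated and 2945 in the knockout with R848. Both R848 arrays lay above both untreated ones, and the knockout had the lowest untreated and the highest stimulated value. The response was 2.74-fold in wild type and 4.12-fold in the knockout. Trim30d signals were 1012, 2678, 706 and 3248 in the same order, a 2.65-fold response in wild type and a 4.60-fold one in the knockout. A second probe of Trim30d gave log2 responses of 1.12 and 1.99. Of 3 Trim30a probes, a second one gave 1.50 and 2.09 but the third only 0.46 and 0.59, so these probes agreed in direction and not in size. Near-identical copies can share labelled RNA on such probes, and values of Trim30 and Trim12 genes cannot be assigned to 1 copy with certainty. No probe was checked for such sharing, those of Trim5, Trim34a and Trim34b included. Trim30e-ps1, by its name a pseudogene, was not well above background on either untreated array (2.70 and 2.67) and reached 22.7 and 29.7 with R848. Its response was at least 1.98-fold in wild type, a bound that does not settle the 2-fold call, and at least 2.56-fold in the knockout.

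Trim34a and Trim34b responded in the same order of genotypes. Trim34a signals were 368 and 815 in wild type and 365 and 943 in the knockout, responses of 2.21-fold and 2.58-fold. Its 4 measured probes all went up with R848, from 0.53 to 1.14 (log2) in wild type and from 0.86 to 1.61 in the knockout, and the mean over its probes in wild type, 0.82, is under 2-fold. Trim34b, measured by 1 probe, gave 280 and 513 in wild type against 244 and 686 in the knockout, so it was above 2-fold in the knockout (2.81-fold) and below it in wild type (1.83-fold).

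Trim12a and Trim12c, the mouse genes closest to primate TRIM5 together with Trim5 and the Trim30 group, had smaller responses. Trim12c was at 200 and 264 in wild type and at 120 and 303 in the knockout, responses of 1.32-fold and 2.52-fold. Its second probe gave only 0.33 and 0.49 on the log2 scale, and the mean of both probes, 0.91 in the knockout, falls short of 2-fold. Trim12a went from 407 to 571 in wild type and from 299 to 545 in the knockout (0.49 and 0.87), and its 4 probes disagreed, ranging from -0.41 to 1.14 in the knockout. Trim5 was dim: 17.1 and 10.3 in wild type and 12.2 and 32.8 in the knockout, where only the first and last of these were well above background. It was at least 2.70-fold higher with R848 in the knockout, and no fold can be given for wild type.

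**Figure D2:**
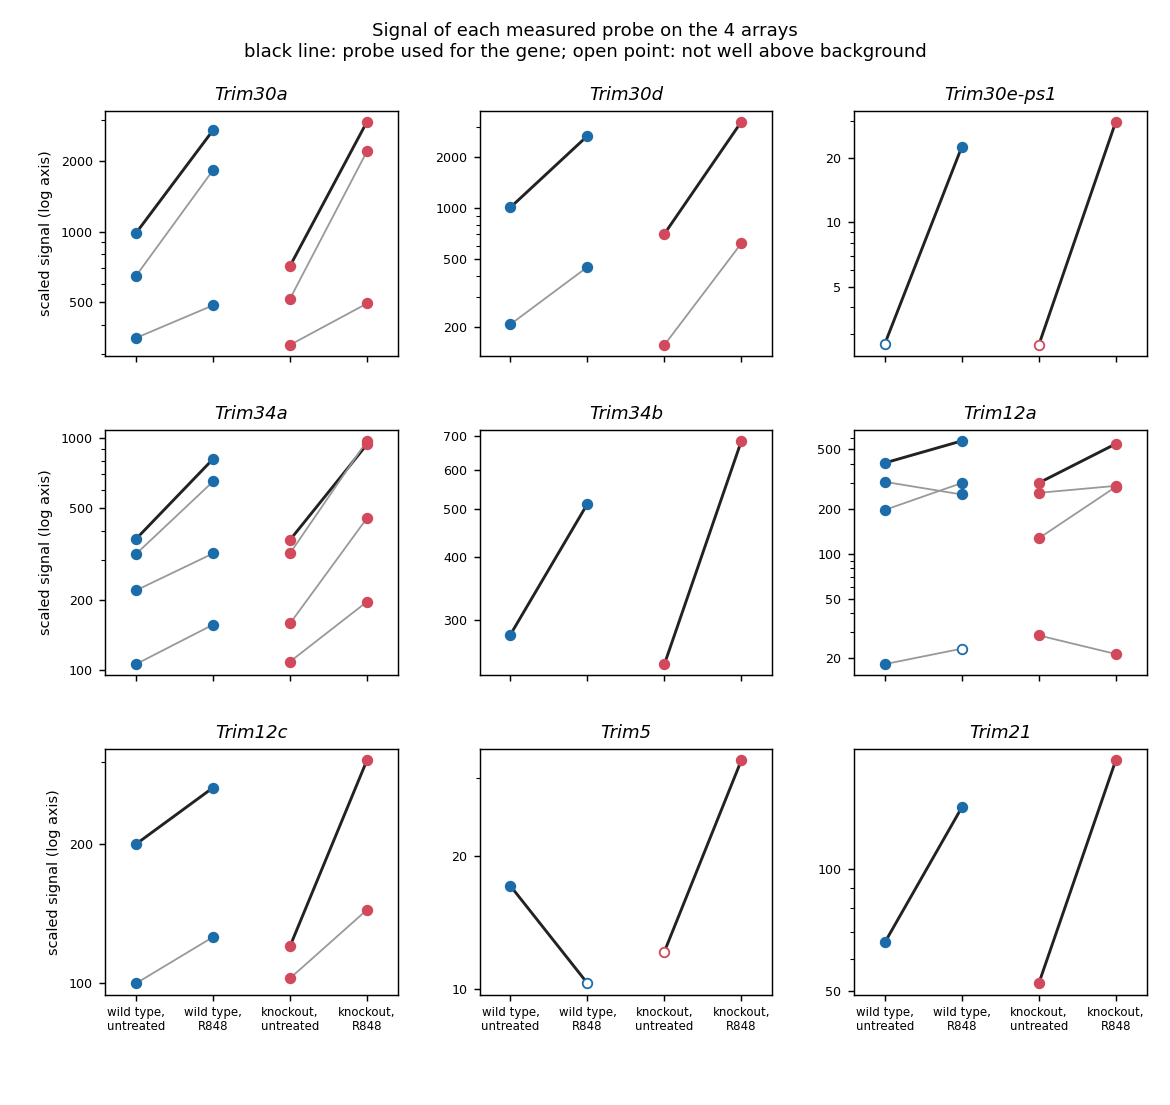
Scaled signal (log axis, arbitrary units) of each measured probe of 9 Trim genes on the 4 arrays, blue for wild type and red for knockout. Lines join the untreated and R848 arrays of a genotype, black for the probe that stands for the gene; the Trim30a lines run from 987 to 2708 in wild type and from 714 to 2945 in the knockout, while some Trim12a probes stay flat.

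These genes lie side by side. Along chromosome 7 of GRCm38.p6, 11 Trim genes from Trim6 to Trim30e-ps1 fall within a run of 21 genes in which no more than 5 other genes separate Trim neighbours, and 9 of them were measured. In the knockout 7 of these 9 were at least 2-fold higher with R848, against 4 of the 50 Trim genes elsewhere. Among the 7, Trim5 and Trim30e-ps1 were not well above background in the untreated knockout, so they could only come out higher. Some genes elsewhere were fixed in direction in the same way. The median log2 response was 1.37 in the run and -0.09 elsewhere. In wild type 3 of 8 were higher, against 4 of 45 elsewhere, with medians of 0.93 and -0.10. Among those 4, Trim9 and Trim36 could only come out higher, since their untreated signals were not well above background. Trim6, at the start of the run, was the exception in direction, with signals of 59.1 and 57.4 in wild type and 102 and 75.7 in the knockout. The run was picked out after its values had been seen, and its genes share sequence, so these counts are a description. In the Trim run of chromosome 17 (Trim26, Trim15, Trim10, Trim40 and Trim31) 1 gene had a wild-type value and 2 a knockout value, none of them called. In that of chromosome 8 (Trim75, Trim60 and Trim61) all 3 had both values and none was called, with Trim60 in wild type only a bound of at least 0.84 on the log2 scale.

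**Figure D3:**
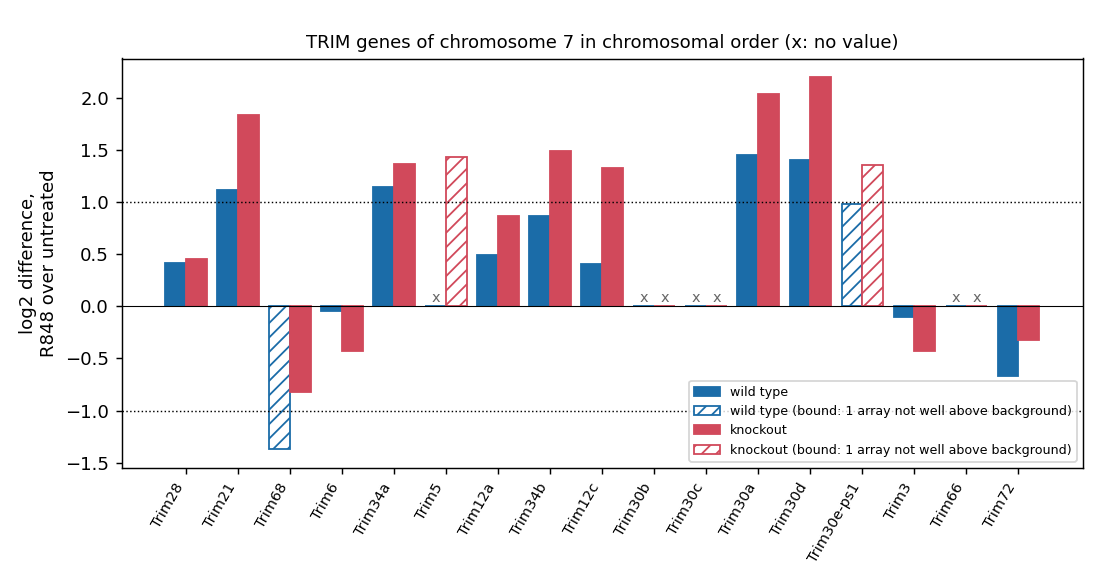
Log2 difference, R848 over untreated, for Trim genes of chromosome 7 in their order along it, blue bars for wild type and red for knockout (1 array per group). Hatched bars are bounds and an x marks no value; 7 genes between Trim34a and Trim30e-ps1 pass the upper dotted line of 2-fold in the knockout, while Trim6 at the start of that run lies below 0.

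Outside the run, Trim21 and Trim13 were higher with R848 in both genotypes. Trim21, the cytosolic antibody receptor, had signals of 65.9 and 143 in wild type and 52.1 and 187 in the knockout, responses of 2.17-fold and 3.58-fold. Trim13, an E3 ligase of the endoplasmic reticulum membrane, gave 90.4 and 242 in wild type and 83.3 and 260 in the knockout, 2.68-fold and 3.13-fold. Each is measured by 1 probe, and in neither gene did untreated and R848 signals overlap.

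Trim9 and Trim36, members of the microtubule-binding COS subfamily, were higher with R848 from low signals. Trim9, known for its role in neurons, was at 10.7 (not well above background) and 54.3 in wild type and at 13.6 and 85.9 in the knockout. It was at least 4.74-fold higher with R848 in wild type and 6.33-fold in the knockout. A second Trim9 probe was not well above background on any array, so the response rests on 1 probe. Trim36 was at 12.2 (not well above background) and 57.6 in wild type and at 15.0 and 46.5 in the knockout, at least 4.72-fold and 3.09-fold higher. The other 4 COS genes measured in both genotypes, among them the muscle proteins Trim54, Trim55 and Trim63, stayed within 2-fold in both responses.

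The genes lower with R848 were PRY-SPRY members (Trim47, Trim62, Trim68 and Trim69) or had other C-terminal domains (Trim37 and Trim59). Each of them is measured by 1 probe. Trim59, a membrane-anchored ligase, was lower with R848 in both genotypes, from 685 to 336 in wild type (2.04-fold lower, just past the threshold) and from 646 to 245 in the knockout (2.63-fold lower). Trim47, a PRY-SPRY member, went from 245 to 123 in wild type, at a log2 difference of -0.99 just short of the threshold, and from 357 to 93.9 in the knockout, at -1.93. Its untreated signal was higher and its stimulated signal lower in the knockout than in wild type. Trim62 went from 69.6 to 28.9 in wild type and from 77.9 to 44.2 in the knockout, and Trim37, a protein of peroxisomes and centrioles, from 60.1 to 27.9 and from 68.0 to 43.4. Both passed 2-fold in wild type (-1.27 and -1.11, log2) and not in the knockout (-0.82 and -0.65), and the size of that gap was not tested. Trim68 (54.4 to 21.0 in wild type, where the second value was not well above background) was at least 2.59-fold lower in wild type and 1.77-fold lower in the knockout (37.8 to 21.4). Trim69 was not well above background on either R848 array, and in the knockout its signal went from 40.5 to 7.02, a drop of at least 2.66-fold. Dimmer probes of Trim23 (-1.29, log2) and Trim45 (-1.31) were also over 2-fold lower in wild type. The probes used for these genes gave -0.30 and -0.22 there. In the knockout the dimmer probes gave -0.96 and 0.14.

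The signals of Trim25 were 157476 and 154604 in wild type and 174599 and 168076 in the knockout, and its 3 probes stayed between -0.35 and 0.20 (log2) in both responses. Trim56, a ligase linked to STING and RNA virus defence, had 9389, 10275, 11180 and 11133 in the order wild type untreated, wild type with R848, knockout untreated and knockout with R848. Trim24 (18089, 19927, 18470 and 19202), Trim8 (3769, 3931, 4014 and 4147) and Trim43b (2457, 2352, 2573 and 2272) complete the 5 members with the highest untreated wild-type signal (an order of probes, not of transcripts), and on the probes used for these 5 genes no response was over 0.18. Other probes of the same genes moved more: 1 of Trim24 gave -0.60 in wild type and 1 of Trim56 gave 0.80 and 0.57. Trim28, the corepressor of KRAB zinc finger proteins, was at 0.41 and 0.46, but its second probe gave -0.05 and -0.51. Trim26, with 1 probe, was at 0.38 and 0.56, and Trim14 at 0.04 and 0.26, or 0.56 and 0.76 on its second probe. By C-terminal domain, none of the 4 NHL and none of the 3 PHD-bromodomain genes measured passed 2-fold in either response. In the PRY-SPRY subfamily 8 of 32 were higher and 2 lower in the knockout, and 4 of 28 higher and 2 lower in wild type.

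**Figure D4:**
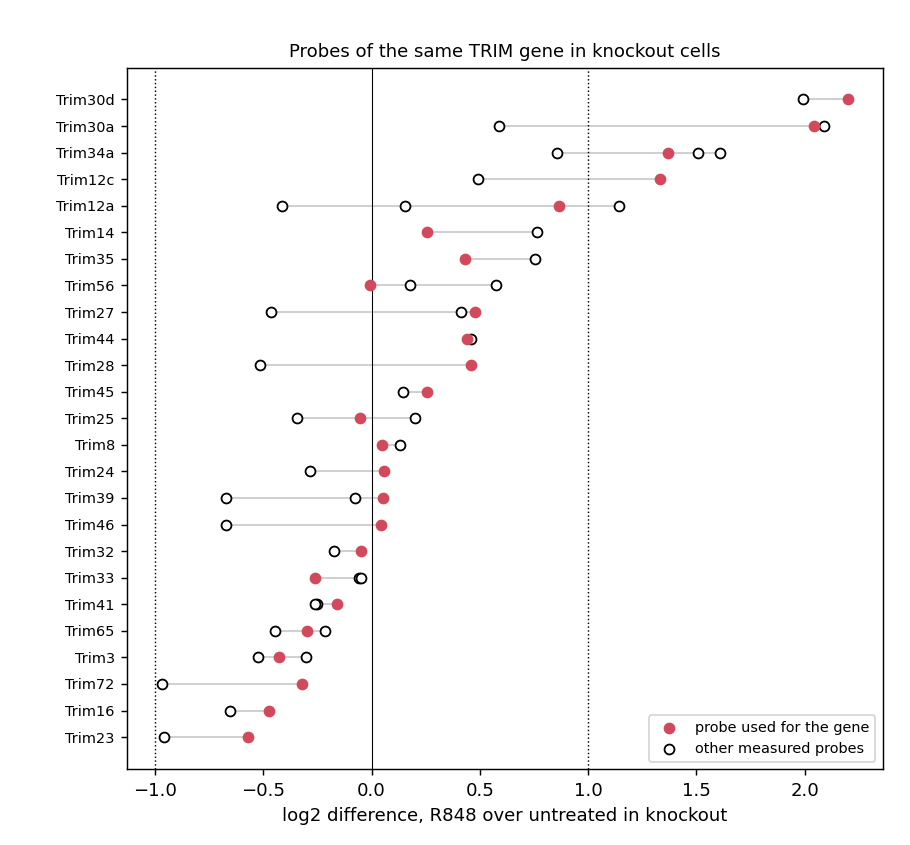
Log2 difference, R848 over untreated in the knockout, for every measured probe of the 25 Trim genes with more than 1 measured probe. Filled points are the probe used for the gene, open points the others, and dotted lines mark 2-fold; the Trim12a probes run from -0.41 to 1.14, and those of Trim30a from 0.59 to 2.09.

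Between genotypes few Trim genes passed 2-fold. On the probes used for the genes, only Trim17 did in untreated cells, 1 of 58, against 5.99% of all genes (2.8% higher and 3.19% lower). It was at least 2.64-fold higher in the knockout, the sole array on which it was well above background (30.3, against 7.80 in wild type). With R848 only Trim29 did, 1 of 53, against 4.78% of all genes (2.34% higher and 2.44% lower). Trim29, a member without a RING domain, had signals of 32.7 and 9.74 in wild type, the latter not well above background, and 39.5 and 48.3 in the knockout, where it was at least 2.60-fold higher with R848. The response differed 2-fold between genotypes in 5.64% of all genes (3.14% higher and 2.5% lower in the knockout). Among the 53 Trim genes with a value only Trim29 did so, by at least 1.11 log2 units. These calls rest on dim probes, and over the 46 genes measured on all 4 arrays the count was 0 in all 3 comparisons. Of all genes measured on every array compared, the shares called were 4.36% (untreated), 3.43% (R848) and 4.43% (difference). Closest to the threshold without passing it were Trim6 (0.78) and Trim55 (0.74) untreated, Trim5 (at least 0.82) and Trim45 (0.67) with R848, and Trim55 (-0.98) and Trim47 (-0.94) for the difference between responses. Trim55 had signals of 62.1 and 64.4 in wild type and 104 and 54.6 in the knockout. Trim45 had 75.4 and 64.7 against 86.1 and 103, but its second, dimmer probe disagreed, at -1.70 untreated, -0.25 with R848 and 1.45 for the difference between responses.

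Below 2-fold, most genes of the chromosome 7 run differed in a common order, lower untreated and higher with R848 in the knockout. In untreated cells only 1 of its 8 measured genes, Trim6, was higher in the knockout, with a median of -0.46 for the 8, against 32 of 50 Trim genes elsewhere, with a median of 0.15. With R848, 8 of 9 were higher in the knockout (median 0.28), against 27 of 44 elsewhere (median 0.07). Trim5 was well above background on only 1 array of each comparison, so its sign was fixed as lower untreated and higher with R848. Some genes elsewhere were fixed in the same way. For Trim30a the genotype differences were -0.47 untreated and 0.12 with R848, for Trim30d -0.52 and 0.28, for Trim12c -0.73 and 0.20, and for Trim34b -0.20 and 0.42. Trim21 showed the same order, at -0.34 and 0.39. For the values that stand for these 5 genes the directions were the same under the scaling, background and gene-value settings tried. The second Trim12c probe, however, gave 0.04 untreated, and probes of Trim12a (-0.63 to 0.64) and Trim34a (-0.47 to 0.04) also differed in sign untreated. Trim34a stood at only -0.01 untreated, and Trim12a was lower in the knockout in both states (-0.44 and -0.07). The comparisons share arrays, since a low untreated value in the knockout lowers one difference and enlarges the response, so they are not separate evidence.

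**Figure D5:**
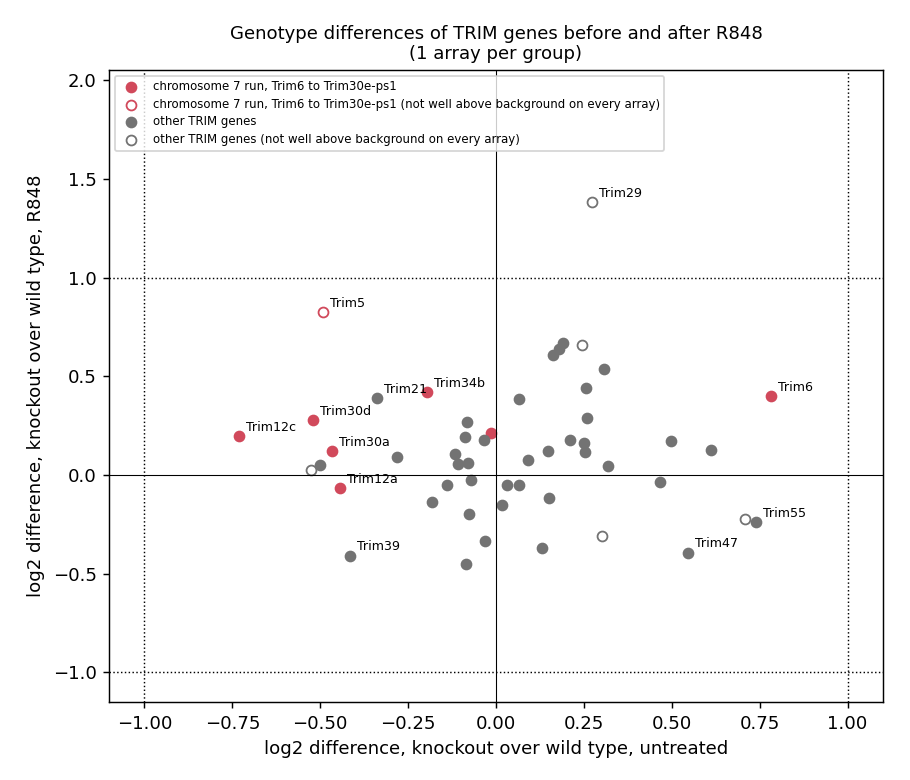
Log2 difference, knockout over wild type, for each Trim gene with both values: untreated cells on the x axis and cells with R848 on the y axis (1 array per group). Red points are genes of the chromosome 7 run from Trim6 to Trim30e-ps1, grey points other Trim genes, open points not well above background on every array; most red points lie left of 0 and above 0, within the dotted 2-fold lines.

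Interferon-stimulated genes were lower in the untreated knockout too, with larger values, and were split with R848. Of 17 reference genes such as Ifit1, Mx1 and Rsad2, 16 were at least 2-fold higher with R848 in wild type (median 2.41, log2) and 17 in the knockout (median 3.68). In untreated cells 9 of them were at least 2-fold lower in the knockout (median -1.01), and all 17 were below 0. With R848 the median was 0.54, with 11 higher in the knockout and 6 lower, among them Isg20 at -0.43 and Bst2 at -0.35. The 5 genes whose 4 centred log2 values lay nearest to those of Trim30a, among 17158 genes measured on all arrays, were Ggct, Ezr, Gm20559, Samd9l and Oas3, at distances of 0.079 to 0.120, and Trim30d was at rank 6 with 0.129. Oas3 is a known interferon-stimulated gene. Trim13 was at rank 48 and Trim21 at rank 54. These distances rest on 4 arrays and are a description.

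Genes of the pathways on which TRIM proteins act were followed as lists beside the family. Of 18 genes of RNA and DNA sensing, 5 were higher and 1 lower with R848 in wild type (median 0.34), and 6 higher and 1 lower in the knockout (median 0.54). The RNA sensors Ddx58 (RIG-I) and Ifih1 (MDA5) were higher by 2.16 and 1.75 in wild type and by 2.73 and 2.70 in the knockout on the log2 scale. Sting1, the adaptor of the DNA sensor cGAS, was lower by similar amounts, with signals of 2851 and 973 in wild type and 3231 and 1061 in the knockout. Tab2 and Tab3, known targets of Trim30a, stayed within 2-fold (0.38 and -0.53 in wild type, 0.53 and -0.62 in the knockout). Of 13 E2 enzymes and genes of the ISG15 system, 4 were higher in each genotype and none lower: Isg15, a ubiquitin-like modifier (3.57 and 4.26), its protease Usp18, its ligase Herc6 and its activating enzyme Uba7. The 9 genes of the Ube2 series, E2 enzymes or variants of them that work with E3 ligases, were all within 2-fold in both responses. Among TRIM relatives without a Trim number, Mefv (pyrin, an inflammasome sensor) was the only one higher, with signals of 415 and 1548 in wild type and 286 and 1622 in the knockout, while Pml, the organizer of nuclear bodies, was at 0.04 and 0.19. Mid2 was the only one to differ 2-fold between genotypes, at 318 in wild type and 747 in the knockout, both untreated.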

How the data were processed

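Total RNA, labelled with Cy3, was measured on 4 Agilent arrays of 1 slide, read in 1 scan. Per the file headers, the deposited values are intensity on a linear scale from Agilent Feature Extraction 11.5.1.1, with the background subtracted and no scaling between arrays; probes are annotated to mm9. A table of scaled intensity that the authors deposited was the same signal times 1 factor per array (3.72 to 4.13), and no source used here states how the factors were set. Its log2 ratios, which the authors deposited, were not used.

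Here log2 of the processed signal was taken, flagged outlier spots (70 to 115 per array) and controls were left out, and each array's 75th percentile was subtracted. No spot was saturated. Between 60.6% and 71.4% of probes per array were well above background. A gene was taken at its brightest measured probe. A dim side was set to the higher of its own value and the array's lowest value well above background. This gives the "at least" values. A difference between responses is in general no bound where such values enter both responses. A gene was called at 2-fold. Names came from Entrez ID, accession or symbol through the GRCm38.p6 gene table (40458 of 56605 probes). The scanner files hold median and not mean spot signals, so normexp (limma 3.58.1, offset 50) used gMedianSignal. Genes described with all values were those at least 2-fold different with a brighter array at or above its median of measured probes, the 5 with the highest untreated wild-type signal, and those next to the threshold; other members were named after their values were seen. Members and lists were chosen with earlier results of these data known.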

Additional observations from a re-analysis of the deposited data

Results flagged for a closer look

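In 5 Trim genes the genotypes differed one way in untreated cells and the opposite way with R848, each difference by more than 2 SDs of repeated spots in the band of the gene's mean signal over the 4 arrays. With 1 array per group the difference was not tested. Trim30d stood at -0.52 untreated and 0.28 with R848 (knockout over wild type, log2), so its response was larger in the knockout by 0.80. Trim30a stood at -0.47 and 0.12, a gap of 0.59. Trim34b stood at -0.20 and 0.42, a gap of 0.62, and Trim21 at -0.34 and 0.39, a gap of 0.73. The untreated signals of Trim21 lie in the next lower band, where the SD was 0.22, and its untreated difference is under 2 of those. For Trim34b the untreated knockout signal, though not the wild-type one, lies in the band below that of its mean, where the SD was 0.15. Its untreated difference of -0.20 is under 2 of those as well. Trim47 ran the other way, at 0.55 and -0.39, a gap of -0.94. Trim21, Trim34b and Trim47 are each measured by 1 probe.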

How the results depend on the processing

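All called Trim differences that a setting could measure (28 of them in the main analysis) kept their direction under 9 other settings. No value with a call turned its sign, but not every setting could have turned one. No Trim spot lay in a locally deviating area (largest deviation 0.25, limit 0.5 log2 units). The filters on dim probes reuse the same signals, and the authors' values are those signals times 1 factor per array. Normexp background correction, which compresses dim probes, left 11 of the 28 at 2-fold: the Trim count was 2 of 55 (6.72% of all genes) in place of 11 for the wild-type response (Trim30a at 1.33 and Trim30d at 1.32, with Trim13 at 0.99) and 9 of 59 (6.77% of all genes) in place of 14 for the knockout response, and 0 in place of 1 for each comparison of genotypes and for the difference between responses. With probes measured on every array compared, these 3 counts were also 0, against 4.36%, 3.43% and 4.43% of all genes. Without a filter on dim probes they were 4 (untreated), 3 (R848) and 7 (difference) of 67, against 10.6%, 8.83% and 13.9% of all genes. The authors' scaled values gave 0 for the untreated genotypes, and quantile normalization 2 for the difference. Median centring moved the share of higher genes among all called from 46.8% to 60.9% in wild type and from 50.9% to 63.0% in the knockout. The authors' values moved it from 48.9% to 60.2% between genotypes with R848. Taking the brightest probe with a RefSeq transcript was added after seeing the data. No paired analysis was possible because each group has 1 array, and for the same reason no array could be left out. Signal over background limits the dim genes, such as Trim9, Trim17, Trim29 and Trim36.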
